A study of Mus musculus with 20 samples.

Results

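The 9 genes described here carry monoamine transmitters through their whole life in a nerve cell: Th, Ddc, Dbh and Tph2 (synthesis), Slc18a2, Slc6a3 and Slc6a4 (transport), and Maoa and Maob (breakdown). They were chosen by name from the 19214 genes counted, and all 9 were in the count tables. The rule uses no measured value, but the choice was made with earlier results of these data known. Polyadenylated RNA was sequenced in 20 libraries of mouse BNST (bed nucleus of the stria terminalis), a forebrain region of the extended amygdala. The groups were susceptible females and susceptible males, which went through chronic restraint stress as a model of anxiety, and female controls and male controls, with 5 libraries each. The labels name no strain, age, allele or drug, and do not say how susceptibility was judged or how long restraint lasted. Separate animals are not stated either, so every p-value here refers to the spread among libraries, which can be technical.

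Tyrosine hydroxylase (Th) makes L-DOPA from tyrosine, aromatic amino acid decarboxylase (Ddc) turns L-DOPA into dopamine, and dopamine beta-hydroxylase (Dbh) turns dopamine into noradrenaline. Tryptophan hydroxylase 2 (Tph2) starts the serotonin branch, which shares Ddc. The vesicular transporter (Slc18a2) loads all of these amines into synaptic vesicles, the plasma membrane transporters for dopamine (Slc6a3) and serotonin (Slc6a4) take them back up, and the monoamine oxidases (Maoa, Maob) break them down. The BNST receives a dense noradrenaline input from the brain stem and dopamine and serotonin inputs from the midbrain, whose cell bodies, and therefore most of their mRNA, lie outside it.

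Total counts per library ranged from 14637636 to 17862840. Of 18 markers of subpallial GABA neurons and the BNST, 17 had a mean of at least 1 CPM (read counts relative to the library total after TMM scaling), with Gad1 and Gad2 at 457 to 893 and 454 to 989 CPM. The other one, Cyp19a1, averaged 0.577 CPM. Libraries of the same group also differed in RNA of neighbouring tissue. Pmch, a lateral hypothalamic peptide gene, exceeded 1 CPM in 5 libraries and Ttr, a choroid plexus gene, exceeded 100 CPM in 7. The summed CPM of 5 cortical excitatory markers ran from 27.3 to 858, and that of 7 striatal markers from 141 to 2944. For 5 magnocellular and periventricular hypothalamic markers the sum ran from 2.80 to 396 CPM. Female control 1 had the lowest striatal sum (141 CPM) and the lowest sum of the 18 subpallial and BNST markers (1666 CPM). Its sum of 6 thalamic markers was the highest (1314 CPM). All results are from bulk tissue, in which fewer cells of a type and less RNA per cell cannot be told apart.

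Measured per exon length, the 9 genes fell into 2 sets. FPKM here are CPM divided by exon length in kilobases. Maob averaged 13.4 FPKM and Maoa 10.4 FPKM over the 20 libraries, Th 4.05, Ddc 3.72 and Slc18a2 3.23 FPKM. The other 4 were near the limit of detection, Tph2 at 0.197 FPKM, Slc6a3 at 0.172, Dbh at 0.0402 and Slc6a4 at 0.0349. The lowest value of the first 5 genes in any library was 1.31 FPKM, and the highest of the other 4 was 0.518 FPKM. The higher set thus included the enzymes for dopamine and the vesicle transporter, while mRNA of Dbh, which marks noradrenaline cells, and of the reuptake transporters was scarce. Among Th, Ddc and Slc18a2 the order by FPKM varied between libraries: Th was above Ddc in 13 of 20, Th above Slc18a2 in 14, and Ddc above Slc18a2 in 12.

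**Figure D1:**
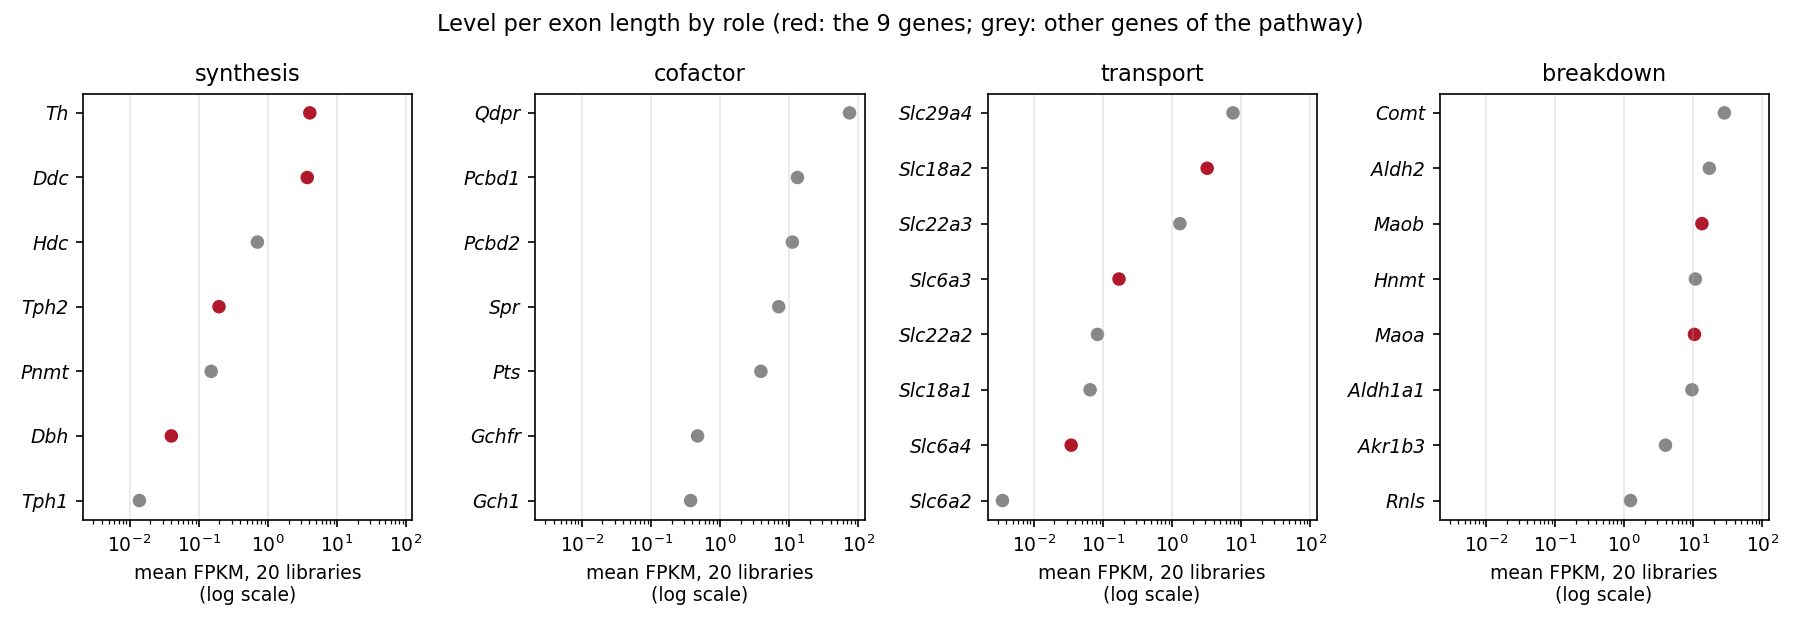
Mean level over 20 libraries (FPKM, log axis) of the 9 monoamine genes (red) and of other genes of the pathway (grey), in 4 panels by role. Both oxidases and the cofactor and breakdown enzymes lie mostly above 1 FPKM, while Tph2, Slc6a3, Dbh and Slc6a4 lie at 0.0349 to 0.197 FPKM.

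Several defining transcripts of the cells that send these inputs were close to 0, but not all. Of 6 noradrenaline markers none had a mean of 1 CPM and 4 were under 0.1 CPM, and Slc6a2, the noradrenaline transporter gene, had 7 counts in all 20 libraries. Of 6 serotonin markers 1 reached 1 CPM, and Fev, a transcription factor gene of serotonin neurons, had 11 counts in all. Of 7 midbrain dopamine markers, Pitx3 had 22 counts in all and Foxa2 had 2, while Aldh1a1 (28.6 to 80.1 CPM) and Nr4a2 (5.65 to 74.3 CPM) were abundant and made up most of that list. The serotonin list summed to 1.59 to 2.77 CPM in susceptible females and 1.60 to 7.26 CPM in female controls, and to 1.17 to 2.37 CPM in susceptible males and 1.03 to 3.68 CPM in male controls. The 7.26 CPM was female control 1, of which Lmx1b alone was 4.65 CPM, while the other female controls had 1.60 to 2.92 CPM. The summed dopamine list ranged from 47.9 to 119 CPM in susceptible females and from 53.0 to 95.5 CPM in female controls, and from 40.9 to 94.8 CPM in susceptible males and from 42.8 to 67.2 CPM in male controls. The summed level of the noradrenaline list ranged from 0.560 to 1.11 CPM in susceptible females and from 0.624 to 1.66 CPM in female controls. It ranged from 0.338 to 0.885 CPM in susceptible males and from 0.488 to 2.37 CPM in male controls, and Dbh is itself on that list.

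Th (chromosome 7, 142892752 to 142931128, minus strand, GRCm38) was present in every library at 73 to 344 counts. Its level was 6.86, 5.47, 8.60, 19.2 and 13.0 CPM in susceptible females, against 13.9, 8.47, 8.42, 9.85 and 7.26 CPM in female controls. In susceptible males it was 8.51, 14.8, 9.10, 10.4 and 10.3 CPM, against 10.6, 7.04, 7.73, 7.63 and 4.55 CPM in male controls. The groups overlapped in both sexes. Susceptible females held both a low pair of libraries and the highest library of the study, and 4 of 5 male controls lay below every susceptible male. Female means were 10.6 ± 5.55 CPM (susceptible) and 9.58 ± 2.58 CPM (control), and male means were 10.6 ± 2.45 CPM (susceptible) and 7.51 ± 2.16 CPM (control), each with its SD over n = 5.

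Ddc (chromosome 11, 11814101 to 11898144, minus strand) was the most variable of the 5 genes above 1 FPKM. Its level was 14.2, 11.1, 12.8, 31.3 and 5.84 CPM in susceptible females, against 19.4, 16.9, 18.4, 17.1 and 9.91 CPM in female controls. Susceptible males had 13.0, 18.7, 14.5, 14.5 and 17.3 CPM, against 20.9, 10.4, 15.9, 10.3 and 39.2 CPM in male controls. The groups overlapped, and 2 libraries stood well above all others, susceptible female 4 and male control 5; outside them the highest value was 20.9 CPM. Male control 5, the library with most Ddc, had the least Th (4.55 CPM). Female means were 15.1 ± 9.64 CPM (susceptible) and 16.3 ± 3.73 CPM (control), and male means were 15.6 ± 2.31 CPM (susceptible) and 19.3 ± 11.9 CPM (control).

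Slc18a2 (chromosome 19, 59260896 to 59296012, plus strand) encodes the transporter that fills vesicles. Its level was 27.0, 20.1, 17.3, 24.1 and 13.0 CPM in susceptible females, against 36.3, 12.4, 13.1, 19.3 and 19.2 CPM in female controls. Among males it was 19.2, 13.9, 10.7, 13.7 and 19.4 CPM in susceptible animals, against 13.5, 11.0, 9.81, 14.7 and 10.2 CPM in male controls. Female control 1 was the highest library by a wide margin, and the groups overlapped in all comparisons. Female means were 20.3 ± 5.53 CPM (susceptible) and 20.1 ± 9.66 CPM (control), and male means were 15.4 ± 3.79 CPM (susceptible) and 11.9 ± 2.16 CPM (control). The gene shares 111 exon bases with an antisense gene, Gm29261, which is not in the count tables, and the strand setting of the counting is not given in the sources used here.

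Of the 9 genes, 8 had a RefSeq promoter window (250 bases before to 50 after the start, GRCm38.p6). Those of Th and Slc18a2 held the full cAMP response element TGACGTCA, the binding motif of CREB, which 1.79% of 32851 such windows held. The motif reads the same on both strands. The windows are shown up to the start site, or to the end of the motif where it spans the start, because these are the first enzyme of dopamine synthesis and the vesicle transporter, both among the 5 genes above 1 FPKM. Capitals mark the motif, at -45 to -38 from the start in Th and at -4 to 4 in Slc18a2 (no position 0). Both are written 5′ to 3′ on the gene's strand. The bounds given above for Th, from GENCODE, begin at 142931128 on its strand, so its RefSeq window lies inside them.
Th, chr7:142899996-142900245, minus strand: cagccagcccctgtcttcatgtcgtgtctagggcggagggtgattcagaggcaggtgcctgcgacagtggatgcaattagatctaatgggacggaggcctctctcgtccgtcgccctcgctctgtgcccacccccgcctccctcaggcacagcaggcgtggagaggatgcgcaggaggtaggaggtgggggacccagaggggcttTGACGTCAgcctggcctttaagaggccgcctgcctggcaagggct
Slc18a2, chr19:59260628-59260881, plus strand: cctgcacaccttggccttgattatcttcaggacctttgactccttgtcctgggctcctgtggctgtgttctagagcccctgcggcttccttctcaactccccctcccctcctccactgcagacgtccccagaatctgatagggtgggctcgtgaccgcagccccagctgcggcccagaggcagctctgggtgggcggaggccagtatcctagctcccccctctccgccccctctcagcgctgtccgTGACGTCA
The full palindrome of the glucocorticoid response element (AGAACA, any 3 bases, TGTTCT, searched on both strands) was in 0 of the 8 windows. As only 3 of all 32851 windows (0.00913%) held it, 0 of 8 cannot set these genes apart. Looser forms of the element were not searched. The Sp1 core GGGCGG was in 5 of the 8 (Maoa, Slc18a2, Slc6a3, Slc6a4 and Th) and in 35.7% of all windows on either strand, and TATAAA was in 2 (Ddc and Tph2) and in 13.6%. Those matches describe letters in these windows and say nothing of binding.

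Maoa and Maob are neighbours on the X chromosome (16619698 to 16687818, plus strand, and 16709282 to 16817366, minus strand). Maoa, which prefers serotonin and noradrenaline, was the steadiest of the 5 genes above 1 FPKM. Its level was 39.7, 36.2, 53.5, 55.4 and 35.8 CPM in susceptible females, against 55.8, 51.4, 43.8, 43.7 and 39.2 CPM in female controls. In susceptible males it was 44.7, 38.2, 46.9, 41.1 and 48.7 CPM, against 50.2, 38.9, 43.8, 28.1 and 35.1 CPM in male controls. Its groups overlapped throughout, with female means of 44.1 ± 9.61 CPM (susceptible) and 46.8 ± 6.69 CPM (control) and male means of 43.9 ± 4.26 CPM (susceptible) and 39.2 ± 8.42 CPM (control).

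Maob, the oxidase of astrocytes and of serotonin and histamine neurons, spread far more widely. Its level was 30.8, 29.7, 64.7, 42.5 and 28.8 CPM in susceptible females, against 80.0, 60.5, 42.3, 32.3 and 27.0 CPM in female controls. In susceptible males it was 26.3, 29.8, 25.2, 24.3 and 61.9 CPM, against 38.9, 30.1, 25.7, 24.6 and 22.5 CPM in male controls. In 4 libraries it was above 60 CPM and in most others near 30 CPM or lower, so that in susceptible males 1 library carried the mean. Female means were 39.3 ± 15.3 CPM (susceptible) and 48.4 ± 21.8 CPM (control), and male means were 33.5 ± 16.0 CPM (susceptible) and 28.4 ± 6.50 CPM (control). Per exon length Maob exceeded Maoa in 15 of 20 libraries, with a ratio of 0.801 to 2.14 and a median of 1.16.

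**Figure D2:**
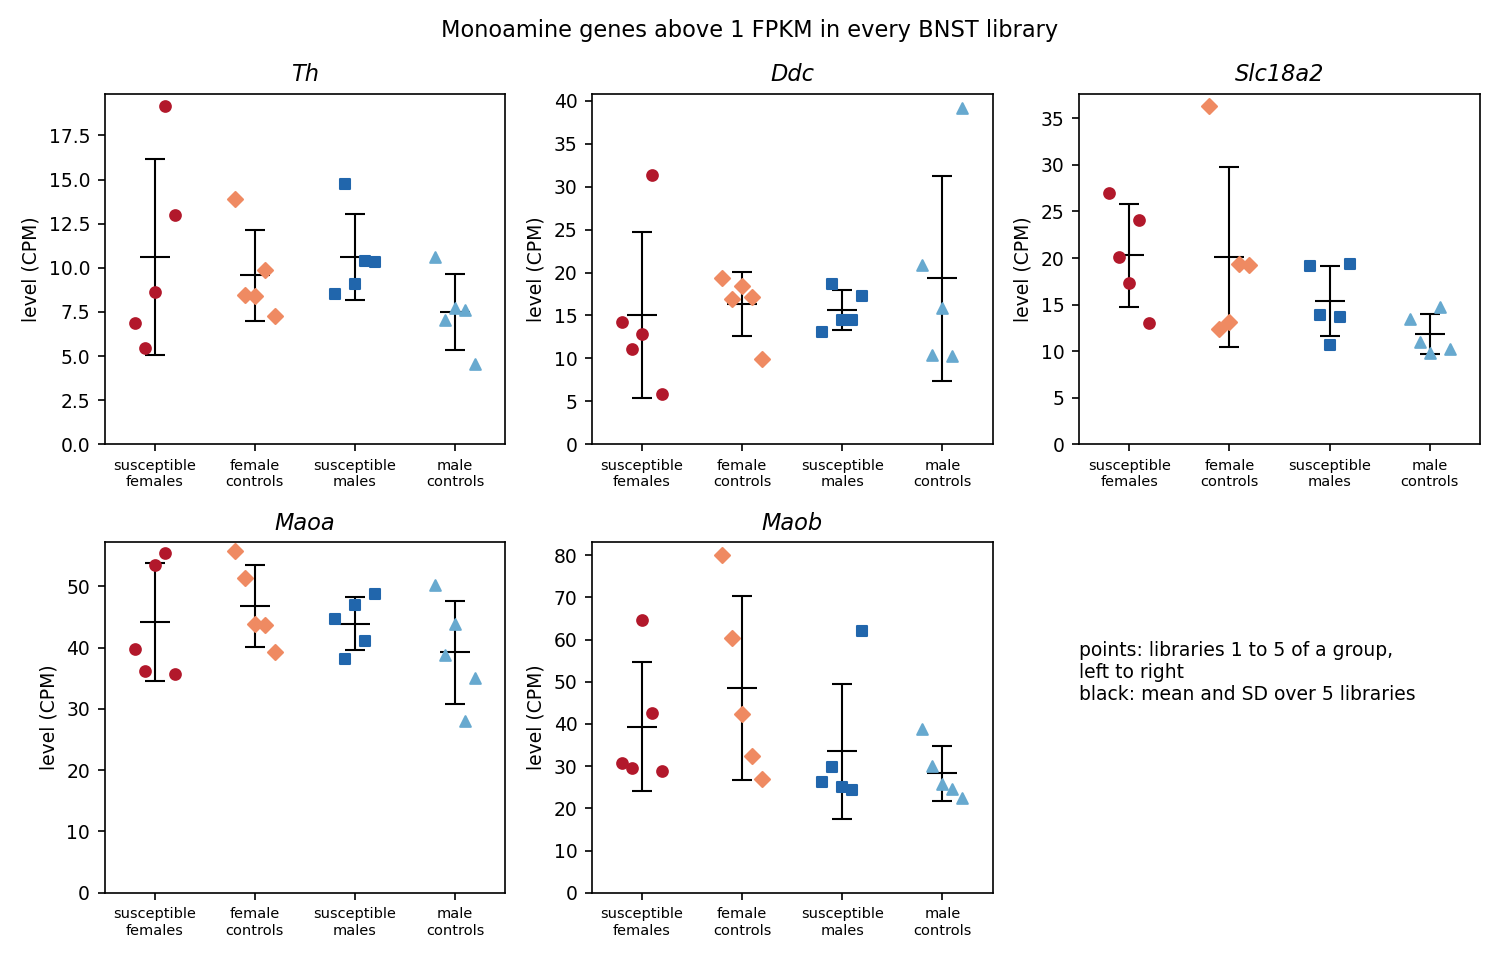
Level (CPM, linear axis from 0) of the 5 monoamine genes above 1 FPKM in every library, with 1 point per library, numbered 1 to 5 from left to right in each group, and black bars for the mean and SD of 5 libraries. The groups overlap for all 5 genes, and single libraries lie far from the rest, such as female control 1 for Slc18a2 (36.3 CPM) and susceptible male 5 for Maob (61.9 CPM).

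For none of the 9 genes did neighbours in the order of the 4 group means differ by more than the larger of their SDs, and their ranges always overlapped. For Th the order ran from susceptible males and susceptible females (both 10.6 CPM) through female controls to male controls, and for Maob from female controls through susceptible females and susceptible males to male controls. Male controls had the lowest mean of Th, Slc18a2, Tph2, Maoa and Maob and the highest of Ddc and Dbh.

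The scarce genes are given as counts. Tph2 (chromosome 10, 115078641 to 115185022, minus strand) had 12, 24, 3, 13 and 12 counts in susceptible females, against 12, 11, 8, 7 and 6 in female controls. In susceptible males it had 2, 7, 12, 11 and 6 counts, against 7, 5, 2, 10 and 12 in male controls. Slc6a3 (chromosome 13, 73536747 to 73578672, plus strand) had 3, 7, 8, 12 and 11 counts in susceptible females, against 26, 12, 6, 4 and 12 in female controls. Susceptible males had 17, 7, 5, 12 and 5 counts, against 11, 8, 3, 12 and 11 in male controls. Both genes were detected in all 20 libraries, with 182 and 192 counts in all, and no group stood apart. Slc6a4 (chromosome 11, 76998603 to 77032340, plus strand) had 50 counts in all and between 0 and 6 in any library, 28 in the 10 susceptible and 22 in the 10 control libraries.

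Dbh (chromosome 2, 27165233 to 27183200, plus strand) had 0, 1, 0, 0 and 1 counts in susceptible females, against 0, 3, 0, 0 and 9 in female controls. Susceptible males had 0, 2, 0, 0 and 0 counts, against 1, 6, 1, 1 and 10 in male controls. It thus had 4 counts in the 10 susceptible libraries and 31 in the 10 control libraries, and 10 libraries had none. Of the 31, 19 came from female control 5 and male control 5. Of the controls, these libraries had the highest sums of cortical excitatory markers (726 and 706 CPM). Susceptible female 5, with a sum of 858 CPM, had 1 count of Dbh, and the part of cortical RNA was not tested. The groups overlapped in both sexes, and the gene did not pass the count filter. Without that filter its log2 fold change, susceptible against control over both sexes, was -2.53 ± 0.88 (unadjusted p = 0.00934, edgeR adjusted p = 0.706), which did not pass after adjustment. At such depths the size of this fold change and its SE depend on the prior count of the fit. Of the other noradrenaline markers, Phox2a had 8 counts in susceptible and 0 in control libraries, and Slc6a2 had 0 in susceptible and 7 in control libraries.

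**Figure D3:**
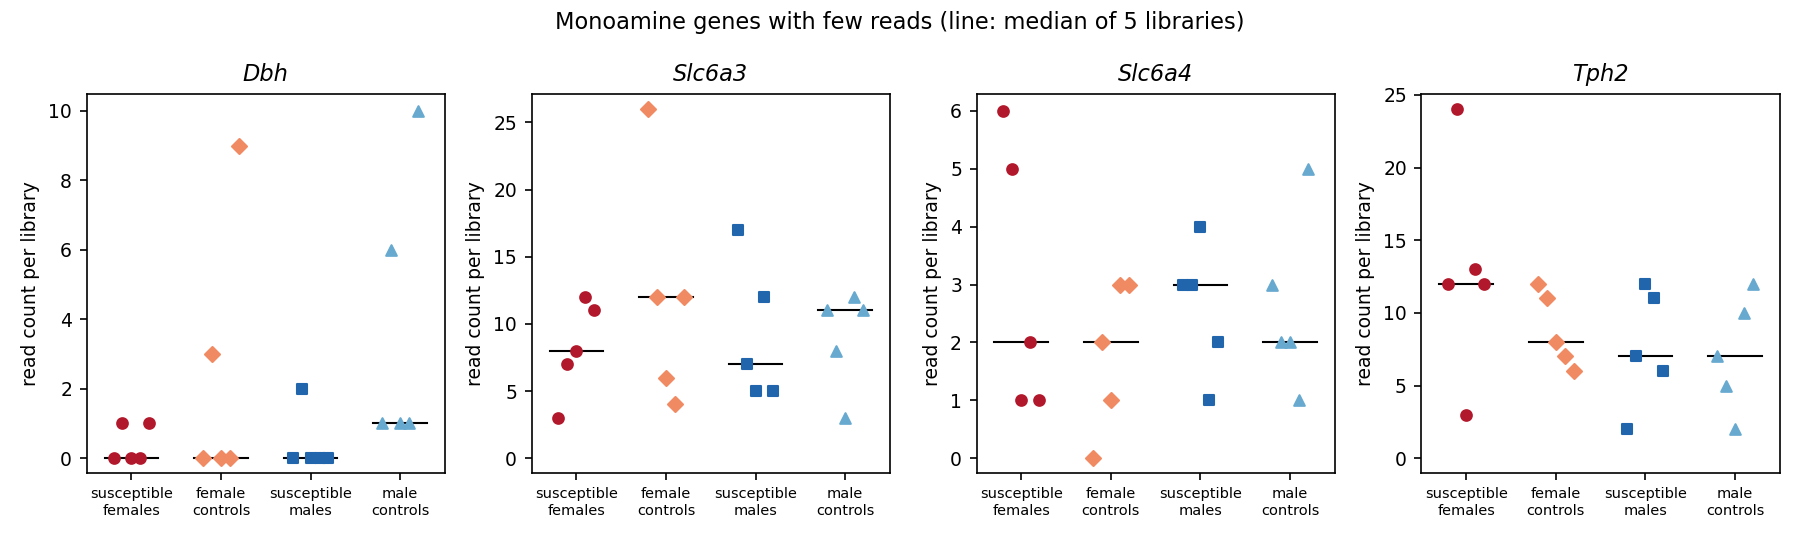
Read counts per library of the 4 scarce genes (linear axis; 1 point per library, line at the median of 5). Dbh reaches 10 counts in male control 5 and 9 in female control 5 and lies at 0 in 10 libraries, and the groups overlap for all 4 genes.

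The stress comparison in females asks whether these genes differ between susceptible females and female controls. With edgeR's quasi-likelihood test over 14884 genes, 7 of the 9 were tested (Dbh and Slc6a4 were below the count filter) and 0 of 7 passed an adjusted p of 0.05, as did 0% of all genes tested. The largest difference in size was that of Tph2, at a log2 fold change of 0.59 ± 0.45 (SE, adjusted p = 0.788). It was 0.25 without susceptible female 2, and over all alternatives it ran from 0.075 (limma voom) to 1.02. Th differed by 0.15 ± 0.29, Slc18a2 by 0.02 ± 0.26, Ddc by -0.11 ± 0.38 and Slc6a3 by -0.48 ± 0.47, which was -0.026 without female control 1. Maoa differed by -0.08 ± 0.15 and Maob by -0.30 ± 0.32, in the absence of that library -0.011 and -0.043. The median over the 7 was -0.08, beside 0.01 over all genes tested. At an unadjusted p under 0.05 there were 0 of the 7 and 871 genes in all, and DESeq2 and limma voom called 0 genes. The ranges of susceptible females and female controls overlapped for all 9, while they did not overlap for 0.457% of genes tested. The 95% interval of Maoa, the narrowest, ran from 0.759-fold to 1.17-fold, and that of Th from 0.730-fold to 1.68-fold.

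In males, susceptible males were set against male controls in the same way. Again 0 of the 7 genes and 0% of all genes passed. Th had the smallest p, with a log2 fold change of 0.50 ± 0.29 (unadjusted p = 0.103, adjusted p = 0.605) and a 95% interval from 0.926-fold to 2.15-fold; without libraries over 100 CPM of Ttr it was 0.18. Slc18a2 differed by 0.37 ± 0.27, Maob by 0.24 ± 0.32, Maoa by 0.16 ± 0.15, Tph2 by 0.15 ± 0.49 and Slc6a3 by 0.12 ± 0.48. Ddc differed by -0.31 ± 0.38, and this value rests on male control 5: without it the difference was 0.12. Of the 7 values 6 were positive, with a median of 0.16, beside -0.01 over all genes tested. Unadjusted, 0 of the 7 and 1439 genes had a p under 0.05; DESeq2 called 24 genes and limma voom 671, with 0 of the 7 among them. The 2 male groups overlapped for all 9 genes and did not overlap for 2.44% of genes tested.

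Averaged over the sexes, the susceptible against control differences were 0.32 ± 0.20 for Th, 0.37 ± 0.33 for Tph2 and 0.19 ± 0.19 for Slc18a2. They were 0.04 ± 0.11 for Maoa, -0.03 ± 0.23 for Maob, -0.18 ± 0.33 for Slc6a3 and -0.21 ± 0.27 for Ddc. None of the 7 passed (0% of all genes did; 1147 had an unadjusted p under 0.05, and DESeq2 called 29 and limma voom 0). The difference between the sexes in the stress effect, female minus male, was tested directly and also gave 0 of 7 calls, with 0% of all genes (1230 at an unadjusted p under 0.05; 0 by DESeq2 and by limma voom). It was -0.54 ± 0.45 for Maob (adjusted p = 0.673), -0.36 ± 0.37 for Slc18a2, -0.35 ± 0.41 for Th and -0.25 ± 0.21 for Maoa. It was -0.59 ± 0.67 for Slc6a3, 0.44 ± 0.67 for Tph2 and 0.20 ± 0.53 for Ddc. These values rest on single libraries: leaving out female control 1 gave -0.029 for Slc18a2, -0.14 for Slc6a3 and -0.18 for Th, leaving out susceptible male 5 gave -0.20 for Maob, and leaving out susceptible female 2 gave 0.089 for Tph2. The interval for Th, from -1.21 to 0.51 on the log2 scale, holds 0 as well as sizeable differences in either direction.

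**Figure D4:**
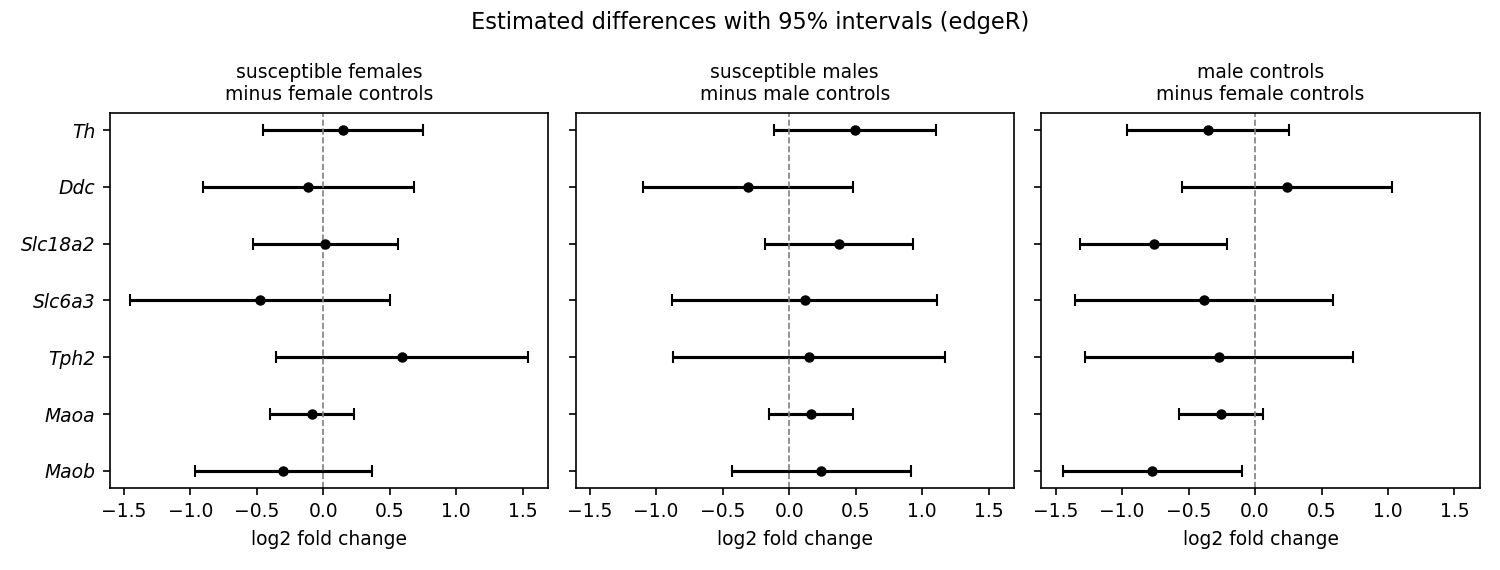
Log2 fold change of the 7 tested genes with 95% intervals (edgeR) in 3 comparisons: susceptible females minus female controls, susceptible males minus male controls, and male controls minus female controls. All intervals span 0 in both stress comparisons; in the control animals those of Slc18a2 (-0.76) and Maob (-0.77) lie below 0 before adjustment.

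Male controls were compared with female controls for the sex difference at baseline. Slc18a2 differed by -0.76 ± 0.26 on the log2 scale, male minus female (unadjusted p = 0.00964, adjusted p = 0.154) and Maob by -0.77 ± 0.32 (unadjusted p = 0.0266, adjusted p = 0.212), and neither passed after adjustment. Th differed by -0.35 ± 0.29, Maoa by -0.26 ± 0.15, Slc6a3 by -0.38 ± 0.46, Tph2 by -0.27 ± 0.48 and Ddc by 0.24 ± 0.38. With edgeR 0 of 7 passed, beside 0.511% of genes tested (76 genes). The median of the 7 was -0.35, beside -0.0026 over all genes tested. The ranges of male controls and female controls overlapped for all 9, while 3.89% of genes tested did not overlap. Female control 1 bears on both values: without it Slc18a2 differed by -0.43 and Maob by -0.52. Over all alternatives Slc18a2 ran from -1.03 to -0.43 and Maob from -0.93 to -0.07. Limma voom with quality weights put Maob past the threshold (-0.71 ± 0.25, adjusted p = 0.0471), in a fit that called 22.1% of all genes. Thalamic markers moved with Maob: their summed level ranged from 202 to 584 CPM in male controls and from 185 to 1314 CPM in female controls, with medians of 204 CPM in male controls and 823 CPM in female controls. The summed list of 5 lateral hypothalamic markers ranged from 88.7 to 223 CPM in male controls and from 87.0 to 296 CPM in female controls. That sum did not follow Pmch, a member of the list. Pmch was at or under 1 CPM in all 5 male controls but in only 2 of 5 female controls. When libraries over 1 CPM of Pmch were left out, leaving 5 male controls and 2 female controls, the Maob difference was -0.07 ± 0.28 and that of Slc18a2 -0.71 ± 0.24.

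Between susceptible males and susceptible females, Tph2 differed by -0.72 ± 0.46 (adjusted p = 0.822), Slc18a2 by -0.40 ± 0.26 and Maob by -0.23 ± 0.32. Slc6a3 differed by 0.21 ± 0.48, Ddc by 0.04 ± 0.38, Th by -0.0015 ± 0.29 and Maoa by -0.01 ± 0.15. None of the 7 passed (0.047% of genes tested did), and the susceptible ranges overlapped for all 9, against 0.779% of genes without overlap.

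Within groups, the 5 genes above 1 FPKM varied more than most genes of similar level. The SD of log2(CPM + 0.5) within groups was 0.61 for Ddc, larger than for 97% of 2184 genes of like level, and 0.51 for Maob, larger than for 96.2% of 2630. It was 0.42 for Slc18a2 (91.5% of 2203), 0.46 for Th (88.8% of 1632) and 0.25 for Maoa (83.2% of 2638). For Slc6a3 and Tph2 the shares were 66.4% and 60.5%.

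Maoa and Maob varied together over the 20 libraries (Pearson's r = 0.735, permutation p = 0.00016, adjusted p = 0.0016 over 10 pairs; Spearman's rho = 0.687, permutation p = 0.00117, adjusted p = 0.0117). The relation was 0.71 without the 2 libraries farthest from the median of Maoa and 0.706 after centring each group on its mean. It was not particular to this pair: Maob reached r = 0.964 with Ntng1, and Maoa reached r = 0.923 with Trim67. The permutation p is set against no relation at all, and the part of shared neighbouring tissue was not tested. The other 9 pairs of the 5 genes did not pass: the next were Th with Maoa (r = 0.489, permutation p = 0.029, adjusted p = 0.111) and Slc18a2 with Maob (r = 0.476, permutation p = 0.0334, adjusted p = 0.111). Th and Ddc, successive enzymes of dopamine synthesis, had r = 0.0957 (permutation p = 0.69) and rho = 0.379 (permutation p = 0.0992).

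Each gene's nearest neighbours by pattern were taken as the 5 highest Pearson correlations of log2 CPM over 20 libraries among 14049 genes. These are descriptions, and libraries that share neighbouring tissue contribute to all of them. For Maob they were Ntng1 (netrin G1, 0.964), Inpp5a (0.955), Slitrk6 (0.952), Far2 (0.94) and Kcnj12 (0.934). For Maoa they were Trim67 (0.923), Lbh (0.902), Ano10 (0.901), Nrbp2 (0.899) and Rhobtb3 (0.893). Those of Ddc were Icosl (0.897), Ndn (necdin, 0.895), Zfp395 (0.88), Elac1 (0.867) and Dnajc10 (0.861). For Slc18a2 the list was Xpo1 (0.858), Ptges3 (0.837), 2610301B20Rik (0.832), Pcdh20 (0.822) and Vsnl1 (0.82). For Th it was C2cd4c (0.842), Elp3 (0.813), Pam (0.787), Ociad1 (0.759) and Esr1 (oestrogen receptor alpha, 0.757), and without the 2 libraries farthest from its median Esr1 stood at 0.649.

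The 7 libraries highest in Maob were also the 7 highest in Tcf7l2, Lef1, Rora and Slc17a6, 4 of 6 thalamic markers, and in Ntng1 and Slitrk6, a set of libraries picked after their values were seen. They were 2 susceptible female, 3 female control, 1 susceptible male and 1 male control library. Maob was at least 38.9 CPM in them and between 22.5 and 32.3 CPM in the other 13, and Tcf7l2 was 79.6 to 222 CPM against 8.36 to 53.3 CPM. Slc17a6, the vesicular glutamate transporter gene of thalamus and hypothalamus, was 173 to 454 CPM against 13.8 to 112 CPM. The summed thalamic list stood at 584 to 1314 CPM against 168 to 439 CPM, and for Prkcd and Calb2, the other two markers, 5 and 6 of the 7 libraries were shared. Maoa, at 43.8 to 55.8 CPM and 28.1 to 46.9 CPM, overlapped between these sets only through female control 3 (43.8 CPM). The rest of the 7 libraries had 48.7 to 55.8 CPM of Maoa, above all libraries outside the set. The part of thalamic RNA in the differences of Maob and Maoa was not tested.

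Single libraries stood out for the other genes beside distinct partners. Female control 1, highest in Slc18a2, had 33.9 CPM of Hdc, the histamine-forming enzyme whose neurons also use this transporter, while the other 19 libraries had 1.30 to 5.48 CPM. It also had 4.65 CPM of Lmx1b (at most 0.404 CPM elsewhere) and 118 CPM of Pmch. Susceptible female 4, highest in Th, had 21.9 CPM of Esr1 and 177 CPM of Oxt, the highest of both, whereas susceptible female 5, with 13.0 CPM of Th, had 4.04 CPM of Esr1 and 0.649 CPM of Oxt. The 2 libraries with most Ddc, male control 5 and susceptible female 4, had 332 and 363 CPM of Ndn against a median of 225 CPM, and female control 1 had 343 CPM of Ndn with 19.4 CPM of Ddc. Whether these transcripts have a part in the levels was not tested.

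**Figure D5:**
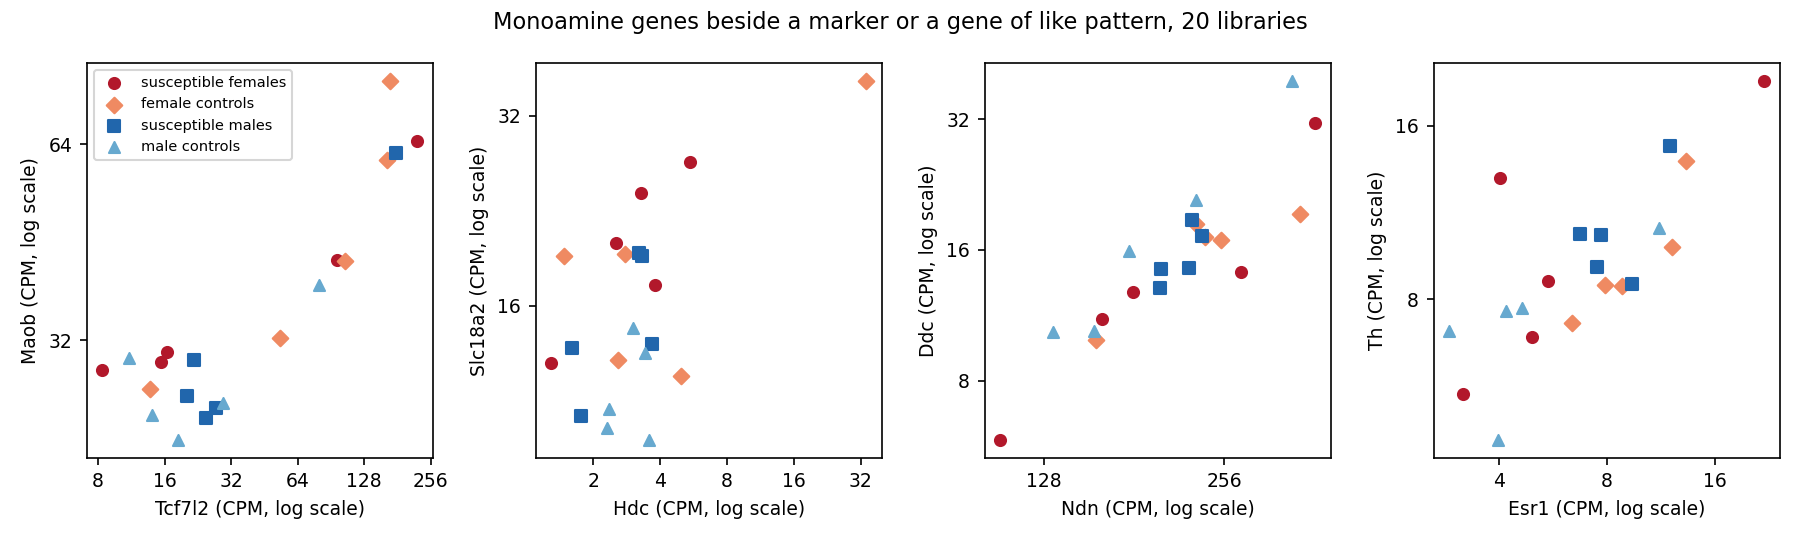
Level per library (CPM, log axes) of Maob beside Tcf7l2, Slc18a2 beside Hdc, Ddc beside Ndn and Th beside Esr1, with 1 point for each of 20 libraries by group; the pairs were picked after their values were seen. The 7 libraries highest in Maob are the 7 highest in Tcf7l2, and female control 1 stands alone in Hdc (33.9 CPM).

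The remaining genes of the pathway, 39 in all, hold the other synthesis enzymes, makers of the tetrahydrobiopterin cofactor that Th and Tph2 need, low-affinity transporters, breakdown enzymes, dopamine receptors and transcription factors of monoamine neurons. Of these, 23 passed the count filter. In susceptible females against female controls 11 were positive and 12 negative with 0 calls. In susceptible males against male controls the split was the same, 11 and 12, with 0 calls, and limma voom alone put Slc22a3, a low-affinity amine transporter gene, past the threshold (-0.62, adjusted p = 0.0468), in a fit that called 4.51% of all genes, a share that 1 of 23 does not exceed. By edgeR the value of Slc22a3 was -0.51 ± 0.20 (adjusted p = 0.463). All 6 tested cofactor genes were positive in that comparison, with a median of 0.31 and no call; Qdpr, which regenerates the cofactor, stood at 0.35 ± 0.17 (adjusted p = 0.523) and Pts, a cofactor synthase gene, at 0.14 ± 0.07 (adjusted p = 0.57). In females 5 of the 6 were negative, with a median of -0.06, and the direct test of the sex difference called none of them (Qdpr -0.58 ± 0.24, adjusted p = 0.587).

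In females the smallest p-values of the list belonged to Gata2 (0.62 ± 0.21), Hdc (-1.48 ± 0.65) and Drd2 (0.88 ± 0.39), each with an adjusted p of 0.774. The Hdc value rests on female control 1: without it the difference was 0.15. For both sexes together they were Gch1, the first enzyme of cofactor synthesis (0.42 ± 0.23, adjusted p = 0.692), Hnmt, which inactivates histamine (0.13 ± 0.08, adjusted p = 0.738), and Hdc (-0.80 ± 0.46, adjusted p = 0.741). Without female control 1 the Hdc value was 0.02. In the difference between the sexes Gata2 (0.96 ± 0.29) and Slc29a4, a plasma membrane monoamine transporter gene (-0.96 ± 0.43), had an adjusted p of 0.587. Between susceptible males and susceptible females Nr4a2, a transcription factor gene of dopamine neurons, had the smallest p (-1.37 ± 0.61, adjusted p = 0.774). It was 74.3 CPM in susceptible female 5 and 11.2 to 30.6 CPM in the other susceptible females, and without that library the value was -0.62. Susceptible female 5 also had the highest sum of cortical excitatory markers of all libraries (858 CPM). The part of cortical RNA in the Nr4a2 level was not tested. Nr4a2 was followed by Slc22a3 (-0.29 ± 0.20, adjusted p = 0.831) and Slc29a4 (0.39 ± 0.30, adjusted p = 0.843).

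Of the 23, 1 gene was called, and only in male controls against female controls. Gata2, a transcription factor gene of serotonin and GABA neurons, had 4.27, 5.04, 5.17, 2.93 and 6.24 CPM in male controls, against 2.95, 2.13, 1.66, 2.16 and 2.65 CPM in female controls. It was higher in male controls by 1.03 ± 0.21 on the log2 scale (edgeR adjusted p = 0.0368; 0.511% of genes were called), although male control 4 lay just below female control 1. The call did not hold in 11 of 29 alternatives, among them leaving out any of female controls 1 to 4 (adjusted p = 0.0585 to 0.119) or male controls 2, 3 or 5 (0.0671 to 0.12), while the value stayed between 0.74 and 1.15. Qdpr (-0.69 ± 0.17, adjusted p = 0.0616) and Aldh1a1, an aldehyde dehydrogenase gene of dopamine neurons (-0.83 ± 0.28, adjusted p = 0.15), came next. Limma voom called both (adjusted p = 0.00355 and 0.0115) in the fit that called 22.1% of all genes. Qdpr passed in 5 of 29 alternatives: limma voom, DESeq2 (adjusted p = 0.00626), the replicate block (0.0334) and without female control 5 (0.027) or male control 1 (0.042). Without libraries over 100 CPM of Ttr its value was -0.40 (adjusted p = 0.374). Without libraries over 1 CPM of Pmch that of Aldh1a1 was -0.17 (adjusted p = 0.969).

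Pnmt, which makes adrenaline from noradrenaline, was picked out after its values were seen and did not pass the count filter. It had 0, 0, 0, 0 and 2 counts in susceptible males, against 5, 5, 3, 11 and 6 in male controls, so these groups did not overlap (2.44% of genes that passed the filter did not). In susceptible females it had 3, 2, 1, 0 and 7 counts, against 0, 4, 0, 3 and 4 in female controls, and these overlapped. Without the count filter its adjusted p in males was 0.513 by edgeR, where 0% of 18949 genes passed.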

How the data were processed

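The authors deposited read counts per gene for each library (whole numbers, not normalized). Per the labels' protocols, RNA was extracted with Trizol and polyadenylated RNA was sequenced as paired reads on an Illumina HiSeq2500. The submitters' processing notes name HISAT2, featureCounts and mm10; with versions, annotation and strand setting not given in the sources used here, overlapping genes cannot be kept apart. Identifiers were matched to the GENCODE mouse release M21 (19206 of 19214). Groups and replicate numbers came from the titles. No 2 libraries of a group agreed within sampling noise (lowest chi-square over degrees of freedom 5.88).

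Counts were scaled by TMM, filtered with filterByExpr (14884 genes) and fitted to the 4 group means with all 20 libraries in edgeR 4.0.16 (robust quasi-likelihood, R 4.3.3). Benjamini-Hochberg adjustment covered all genes tested; the threshold was 0.05. The code was tested on simulated data. Each standard error is the size of the log2 fold change divided by the root of its F statistic. Correlations used log2 CPM (prior count 2) and 100000 permutations, 2-sided. Reads carry no molecular identifiers, and a count of 0 says only that no read was counted at that depth.

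The 9 genes were named in full, and of 39 listed pathway genes those called or with the 3 smallest p-values per comparison. The rule for the 9 genes names them and uses no measured value, but they, the lists and the thresholds of Pmch and Ttr were chosen with earlier results of these data known. Alternatives were DESeq2 1.42.0 size factors and Wald test, limma 3.58.1 voom with quality weights, other count filters, the replicate number as a block, 2 groups alone, and leaving out libraries.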

Additional observations from a re-analysis of the deposited data

Results flagged for a closer look

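For each of the 9 genes in each of the 4 groups, the library farthest from the other 4 was looked at, and 4 of 36 combinations held 1 library far from the rest. Of these, 3 were among the 20 combinations of the genes above 1 FPKM, where chance gives about 1 in 20 for normally spread values. That rate does not apply to the 16 combinations of scarce counts. Where all other libraries of a group are at 0, as for Dbh in susceptible males, 1 library with any read stands apart by construction. Slc18a2 was 36.3 CPM in female control 1 and 12.4 to 19.3 CPM in the other female controls. Maob was 61.9 CPM in susceptible male 5 and 24.3 to 29.8 CPM in the other susceptible males. Ddc was 9.91 CPM in female control 5 and 16.9 to 19.4 CPM in the other female controls. Dbh was 0.132 CPM in susceptible male 2, a value of 2 counts, and 0 in the other susceptible males.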

How the results depend on the processing

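Of 1189 values of the 42 fold changes of the 7 tested genes under alternatives, 1105 kept their direction and side of the threshold, 83 changed sign without passing it (51 with 1 library left out) and 1 passed it. That 1 was Maob in male controls against female controls by limma voom, so that 1 of 7 genes was called there and 0 under every other alternative run; the cause was not tested. With limma voom the signs of these log2 fold changes also turned: Th -0.029 in females; Ddc 0.10 and Maob -0.013 in males; Slc6a3 0.10 over both sexes; Ddc -0.43 and Tph2 -0.51 in the sex difference of the stress effect; Ddc -0.28 between controls; Th 0.16 between susceptible groups. Without libraries over 100 CPM of Ttr (3, 3, 3 and 4 left in susceptible females, female controls, susceptible males and male controls) they were Ddc 0.060 and Slc18a2 -0.39 in females, Maob -0.23 in males, Ddc 0.015, Slc18a2 -0.070 and Slc6a3 0.050 over both sexes, Th 0.091 in the sex difference, Ddc -0.11 between controls, and Ddc -0.20 and Maoa 0.066 between susceptible groups. Without libraries over 1 CPM of Pmch (4, 2, 4 and 5 left) they were Th -0.013, Maob 0.38 and Hdc 0.62 in females, Maob -0.091 in males, Slc6a3 0.11, Maob 0.15 and Hdc 0.23 over both sexes, Maob 0.47 in the sex difference, Slc6a3 0.13 and Tph2 0.10 between controls, and Th 0.34 and Maoa 0.049 between susceptible groups. Th between susceptible groups was 0.0051 with the stricter filter and 0.0045 with 2 groups alone. With the replicate number as a block, Th was 0.047 there and Maob 0.0040 over both sexes; no call on the 9 genes changed. The numbers gave no clear pairing: 8 of 20 same-numbered pairs correlated above 0.1 (range -0.436 to 0.642), and 4 libraries correlated best with their own number. Differences in neighbouring tissue enter these correlations, so they cannot decide whether the numbers pair the libraries.

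With 1 library left out, the ranges of results that changed sign were, in females, -0.18 to 0.32 (Th), -0.57 to 0.089 (Ddc), -0.12 to 0.34 (Slc18a2) and -1.75 to 0.15 (Hdc). In males they were -0.46 to 0.12 (Ddc), -0.24 to 0.28 (Slc6a3), -0.067 to 0.42 (Tph2) and -0.10 to 0.38 (Maob). Over both sexes they were -0.44 to 0.0038 (Ddc), -0.36 to 0.046 (Slc6a3), -0.0071 to 0.094 (Maoa), -0.20 to 0.10 (Maob) and -0.93 to 0.019 (Hdc). In the sex difference Ddc ran from -0.26 to 0.39. Between controls Ddc ran from -0.19 to 0.40 and Slc6a3 from -0.59 to 0.069, and between susceptible groups the ranges were -0.16 to 0.33 (Th), -0.15 to 0.50 (Ddc), -0.15 to 0.41 (Slc6a3), -0.072 to 0.088 (Maoa) and -0.58 to 0.022 (Maob). Another 19 of the 42 kept their sign and moved by over 1.5 times. In females they ran from -0.68 to -0.026 (Slc6a3), 0.25 to 0.85 (Tph2), -0.18 to -0.011 (Maoa) and -0.55 to -0.043 (Maob), and in males from 0.074 to 0.27 (Maoa). Over both sexes they ran from 0.16 to 0.41 (Th), 0.13 to 0.36 (Slc18a2) and 0.20 to 0.50 (Tph2). In the sex difference they ran from -0.68 to -0.18 (Th), -0.49 to -0.029 (Slc18a2), -0.80 to -0.14 (Slc6a3), 0.089 to 0.70 (Tph2), -0.35 to -0.16 (Maoa) and -0.80 to -0.20 (Maob). Between controls they ran from -0.51 to -0.18 (Th), -0.89 to -0.43 (Slc18a2), -0.54 to -0.057 (Tph2) and -0.36 to -0.16 (Maoa), and between susceptible groups from -0.97 to -0.37 (Tph2).

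Calls over all genes depended on the method. In males edgeR called 0, DESeq2 24 and limma voom 671, and over both sexes edgeR called 0 and DESeq2 29. Between controls edgeR called 76, DESeq2 455, limma voom 3290, edgeR without the filter 38, with 2 groups alone 19, and 5 without either the Ttr or the Pmch libraries; leaving out 1 library gave 6 to 458. Between susceptible groups edgeR called 7, DESeq2 15, limma voom 11, and 4 with the block, with 2 groups alone and without Ttr libraries, 13 without Pmch libraries, and 6 to 20 with 1 library left out. In females leaving out 1 library gave 0 to 2. Dbh and Slc6a4, at 35 and 50 counts in all, are limited by depth.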
